A study of Mus musculus with 6 samples.

Results

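Collagens are the main structural proteins of the extracellular matrix, and each molecule is a helix of 3 chains wound around each other, which may come from 1 gene or from several. The collagen chain genes were taken as all genes whose symbol in the authors' deposited table has the form Col, a number, a and a number. The rule found 41 genes among 22349 named genes on the array, all with a symbol that is current in RefSeq. They were grouped by class into 11 fibrillar chains, 6 of basement membranes, 4 of beaded filaments, 9 of the FACIT class (fibril-associated collagens with interrupted helices), 2 multiplexins, 4 transmembrane chains, 3 short-chain network collagens, 1 anchoring fibril chain and 1 other. For the 3 members with several probe sets the brightest over the 6 arrays stood for the gene.

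Mesenchymal stem cells are adherent cells that give rise to cartilage, bone and fat cells. Those of mouse bone marrow had been seeded at either 2500000 cells (dense) or 15000 cells (sparse). RNA was collected 1, 2 and 3 days after seeding and read on 1 Affymetrix array per density and day, so that there were 3 dense and 3 sparse arrays. All cultures had the same kind of stem cell medium from a supplier, and no strain, age, genotype or added agent is given in the labels. The prefix shared by the 6 titles is not explained either, and how many isolations the arrays stand for is not given.

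Cells of the mesenchymal lineage are the main source of fibrillar collagen in connective tissue. Procollagen chains are hydroxylated on proline and lysine and folded in the endoplasmic reticulum, exported, trimmed of their propeptides and crosslinked by lysyl oxidases. Fibrillar chains then form striated fibrils, FACIT chains sit on the surface of fibrils, beaded filament chains form microfilaments close to the cell, and type IV chains form the sheet of basement membranes.

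Values are RMA log2 values as deposited, and 1 unit is a doubling. Differences are dense minus sparse with the standard error (SE) of a limma fit that kept the day as a factor, over 3 arrays per density, and a member was called at a Benjamini-Hochberg adjusted p under 0.05 over all 16762 genes tested. A gene was tested when its mean level reached 3.32, the 25th percentile of all named genes, and all 41 members did. With 1 array per density and day, these p-values rest on how steady the difference was over the days and do not measure the spread between replicate cultures. Array medians lay between 4.33 and 4.45. RMA values understate differences of dim genes. Levels of different genes come from different probes, so that a gene called brighter than another has the higher array value and not necessarily more RNA.

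Of the 41 collagen chain genes, 12 were higher and 1 was lower in dense cultures, and 28 did not pass the test. Among all tested genes 8.26% were called higher and 2.9% lower. The 12 were 6 fibrillar chains (Col1a1, Col1a2, Col3a1, Col5a1, Col5a2 and Col11a1), 3 beaded filament chains (Col6a1, Col6a2 and Col6a3), the FACIT chains Col12a1 and Col16a1 and the basement membrane chain Col4a5. Their median fold was 2.65 and 11 had a fold of 2 or more. In RNA of whole cultures, a change in the share of a cell type and a change in RNA per cell cannot be told apart. The median difference over all 41 members was −0.05, beside −0.05 over all genes tested. The members not called included 21 with a value below 0 and 7 with one above 0, against 8733 and 6159 of all genes not called. Calls went with the array level: 12 of 14 members with a mean level of 6 or more were called higher, and 0 of 27 under 6. Among all tested genes 11.01% and 5.44% were called higher at these levels. Whether the classes differ apart from their levels was not tested. Whether a gene was called depended on the day 2 arrays: with either or both of them left out limma called 0 of the 41 members and 0 of all genes (smallest adjusted p = 0.0803; 12 members higher and 1 lower at an unadjusted p under 0.05). The differences themselves remained without day 2, at 2.77 for Col3a1, 2.52 for Col12a1, 2.21 for Col6a1 and 1.51 for Col1a1, and the median difference of the 12 members was 1.60, 1.72 and 1.18 on days 1, 2 and 3. Quantile normalization applied again called 11 members higher and 3 lower. Over all genes it called 1085 higher and 816 lower, against 1384 and 486 in the main fit.

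**Figure D1:**
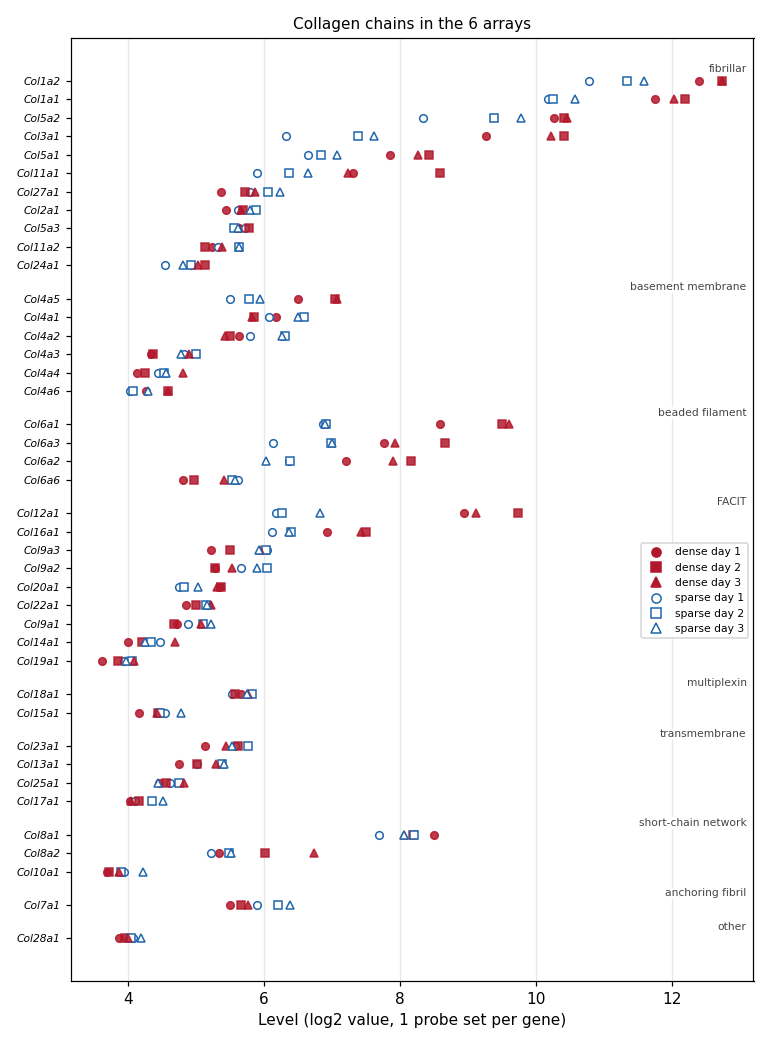
Log2 level (x axis) of each of the 41 collagen chain genes (y axis, by class) in every array, with filled symbols for dense and open symbols for sparse cultures and the day as the symbol shape. The fibrillar chains Col1a2, Col1a1, Col5a2, Col3a1, Col5a1 and Col11a1 lie at the top with their dense arrays to the right of their sparse arrays, while most members not called show mixed symbols.

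Type I collagen, the main fibril of bone, tendon and skin, is made of chains from Col1a1 and Col1a2. The log2 level of Col1a1 on days 1, 2 and 3 was 11.75, 12.19 and 12.03 in dense and 10.18, 10.26 and 10.58 in sparse cultures. That of Col1a2 was 12.41, 12.74 and 12.75 in dense and 10.79, 11.34 and 11.59 in sparse cultures. Every dense array of both genes lay above every sparse array. Col1a1 was 3.15-fold higher in dense cultures (difference 1.66 ± 0.14, limma adjusted p = 0.00721). Col1a2 was 2.62-fold higher (1.39 ± 0.14, limma adjusted p = 0.00869). Both chains thus rose, and the daily differences were 1.58, 1.94 and 1.45 for Col1a1 and 1.62, 1.40 and 1.16 for Col1a2.

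Type III collagen is built from Col3a1 alone and lies with type I in fibrils of distensible tissues. Its levels were 9.27, 10.42 and 10.22 in dense and 6.32, 7.39 and 7.62 in sparse cultures. Dense and sparse arrays did not overlap, and the lowest dense value, on day 1, was above the highest sparse value, on day 3. The 7.25-fold difference (2.86 ± 0.14, limma adjusted p = 0.00379) was the highest of the 41 members. It stayed between 2.60 and 3.03 on the 3 days although both densities rose from day 1 to day 2.

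The promoters of Col1a2 and Col3a1 are shown as those of a type I and a type III chain gene that rose. They are RefSeq windows on build GRCm38.p6, from 250 bases before to 50 after the annotated gene start, with capitals marking 3 motifs on either strand, of which no match overlapped another: the letters TATAAA as the TATA box, CCAAT as the box of that name, and GGGCGG as the GC box.
Col1a2, chr6:4505368-4505667, plus strand: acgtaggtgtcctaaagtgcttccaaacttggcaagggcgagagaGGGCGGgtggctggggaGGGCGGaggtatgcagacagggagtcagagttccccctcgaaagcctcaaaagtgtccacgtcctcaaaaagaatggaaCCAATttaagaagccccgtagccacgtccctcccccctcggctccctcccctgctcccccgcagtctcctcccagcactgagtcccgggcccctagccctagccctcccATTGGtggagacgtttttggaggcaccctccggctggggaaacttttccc
Col3a1, chr1:45311288-45311587, plus strand: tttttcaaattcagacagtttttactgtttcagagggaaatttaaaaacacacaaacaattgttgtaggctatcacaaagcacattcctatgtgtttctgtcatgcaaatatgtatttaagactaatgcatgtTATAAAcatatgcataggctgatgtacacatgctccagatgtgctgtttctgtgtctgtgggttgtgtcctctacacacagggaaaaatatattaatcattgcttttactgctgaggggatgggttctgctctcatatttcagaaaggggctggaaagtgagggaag
The Col1a2 window held 2 GC boxes and 2 CCAAT boxes, and 61.0% of its bases were G or C. The Col3a1 window held 1 TATA box, 117 bases before the gene start, and neither of the others, with 37.7% G or C. These matches are letters in a window and were not tested as binding sites.

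Type V collagen starts and limits the growth of type I fibrils. Col5a1, its main chain, had levels of 7.86, 8.42 and 8.27 in dense and 6.65, 6.84 and 7.07 in sparse cultures, with no overlap between the densities. It was 2.51-fold higher in dense cultures (1.33 ± 0.13, limma adjusted p = 0.00909). A dimmer second probe set of Col5a1, with levels of 5.27 to 5.86, had a difference of −0.28 (adjusted p = 0.1495 when each probe set was tested separately). With the mean of both probe sets the difference was 0.52 and still passed.

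Col5a2, the partner chain of type V, had levels of 10.27, 10.42 and 10.46 in dense and 8.35, 9.38 and 9.78 in sparse cultures. Here the sparse arrays climbed toward the dense ones, which were nearly level. Its difference over the 3 days (1.21 ± 0.24, 2.32-fold, limma adjusted p = 0.0369) was therefore made of daily values of 1.92, 1.03 and 0.69. Without the day 1 arrays it was 0.86 and passed. The third type V chain, Col5a3, had sparse and dense levels between 5.56 and 5.78 and a difference of 0.06 ± 0.12 that did not pass (limma adjusted p = 0.755).

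Type XI collagen is the counterpart of type V in cartilage fibrils, and Col11a1 is also made by other mesenchymal cells. Col11a1 had levels of 7.31, 8.58 and 7.24 in dense and 5.89, 6.37 and 6.64 in sparse cultures. Its dense day 2 array stood above the other dense arrays, and the groups did not overlap. The difference of 1.41 ± 0.30 (2.66-fold, limma adjusted p = 0.0411) ran from 0.60 on day 3 to 2.21 on day 2. This call was lost without the day 1 or the day 2 arrays, with no filter on low values, with quantile normalization applied again and when each probe set was tested separately, with values from 1.01 to 1.81 over all alternatives.

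The other fibrillar chains did not pass. Col27a1 had a difference of −0.38 ± 0.11 (limma adjusted p = 0.0814), with daily values of −0.43, −0.34 and −0.37, and was called lower with quantile normalization applied again. Col11a2, a cartilage chain, had −0.28 ± 0.13, and Col2a1, the chain of the main cartilage fibril, had −0.17 ± 0.11. Col24a1 had 0.27 ± 0.12. Their mean levels lay between 4.89 and 5.84. Of 6 measured cartilage markers, 5 had a mean under the median of all values and Sox9 had 7.47, and 0 of 4 tested ones passed limma's density test (1 at an unadjusted p under 0.05, lower).

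**Figure D2:**
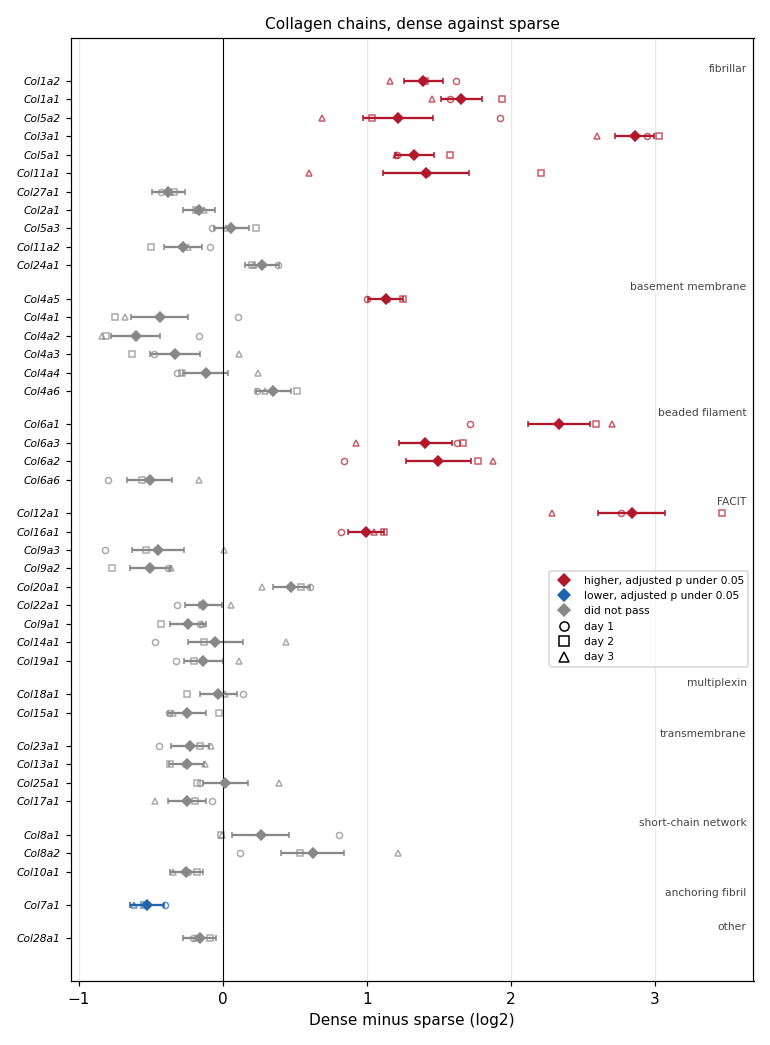
Dense minus sparse difference on the log2 scale (x axis) for each of the 41 members (y axis, by class). Diamonds with bars are limma estimates ± SE over 3 arrays per density, open symbols are the single-day differences, and colour marks the call; the 12 members called higher run from 1.00 for Col16a1 to 2.86 for Col3a1 and Col7a1 is called lower.

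Type VI collagen forms beaded microfilaments around cells from chains of Col6a1, Col6a2 and Col6a3, and all 3 genes rose in dense cultures. Col6a1 had levels of 8.59, 9.501 and 9.60 in dense and 6.87, 6.91 and 6.90 in sparse cultures. The sparse arrays were nearly identical over the days and the dense arrays lay far above them. It was 5.05-fold higher (2.33 ± 0.22, limma adjusted p = 0.00763). Col6a2 had levels of 7.20, 8.16 and 7.90 in dense and 6.36, 6.38 and 6.03 in sparse cultures, and was 2.82-fold higher (1.496 ± 0.22, limma adjusted p = 0.0204). For both genes the difference was smallest on day 1, at 1.71 and 0.84, and larger on days 2 and 3.

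Col6a3, whose chain carries a long array of von Willebrand factor A domains, had levels of 7.76, 8.66 and 7.92 in dense and 6.13, 6.99 and 6.998 in sparse cultures. It was 2.65-fold higher in dense cultures (1.41 ± 0.18, limma adjusted p = 0.0146), but unlike its partners its daily values, 1.63, 1.67 and 0.92, were smallest on day 3. Whether the chains differ from each other was not tested. The additional chain Col6a6 went the other way without passing, with −0.51 ± 0.16 (limma adjusted p = 0.0874). It had levels of 4.81, 4.97 and 5.41 in dense and 5.61, 5.53 and 5.57 in sparse cultures, and no overlap between the densities. Without the day 3 arrays Col6a6 was called lower. A dimmer second probe set of Col6a6, with levels of 3.32 to 3.68 near the filter floor, had a difference of −0.15. It did not pass (limma adjusted p = 0.403 when each probe set was tested separately).

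Col12a1 led the FACIT chains. Type XII collagen binds the surface of type I fibrils and is abundant in dense connective tissue. Its levels were 8.94, 9.73 and 9.11 in dense and 6.18, 6.26 and 6.83 in sparse cultures. All dense values exceeded all sparse values by a wide margin, and day 2 was the highest dense array. Col12a1 was 7.15-fold higher (2.84 ± 0.23, limma adjusted p = 0.00719). On day 2 its difference of 3.47 was the largest single-day value of any member.

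Col16a1, a FACIT chain of fibroblasts and smooth muscle, had levels of 6.93, 7.51 and 7.43 in dense and 6.11, 6.39 and 6.37 in sparse cultures. It was 1.99-fold higher, with no overlap (1.00 ± 0.12, limma adjusted p = 0.0137). The other 7 FACIT chains did not pass, although Col20a1 was called higher without the day as a factor and without day 3, Col9a3 lower without day 3 and Col9a2 lower with quantile normalization applied again. Col9a1, Col9a2 and Col9a3, whose product type IX collagen coats cartilage fibrils, had −0.24 ± 0.12, −0.50 ± 0.14 and −0.45 ± 0.18. Col14a1, the relative of Col12a1, had −0.05 ± 0.19 at levels of 4.004 to 4.68. Col20a1 had 0.48 ± 0.13 by its brighter probe set and −0.03 by the dimmer one. Col22a1 and Col19a1 had −0.14 ± 0.13 and −0.14 ± 0.14.

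Of the 6 type IV genes of basement membranes, 1 rose and 5 did not pass, with a class median of −0.23. Col4a5 had levels of 6.49, 7.04 and 7.07 in dense and 5.49, 5.79 and 5.94 in sparse cultures. It was 2.19-fold higher in dense cultures (1.13 ± 0.12, limma adjusted p = 0.0101), with every dense array above every sparse one. Col4a6, its neighbour on the X chromosome, had 0.35 ± 0.12 and did not pass (limma adjusted p = 0.112).

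Col4a1 and Col4a2 encode the chains of the most widespread type IV network. Col4a1 had levels of 6.17, 5.85 and 5.82 in dense and 6.07, 6.59 and 6.50 in sparse cultures. Col4a2 had 5.63, 5.49 and 5.43 in dense and 5.80, 6.30 and 6.27 in sparse cultures. In both genes the dense arrays declined over the days and the sparse arrays were higher on days 2 and 3 than on day 1. The differences, −0.44 ± 0.20 for Col4a1 (limma adjusted p = 0.177) and −0.61 ± 0.17 for Col4a2 (limma adjusted p = 0.0739), did not pass. Without the day 1 arrays both were called lower, and Col4a2 also without the day as a factor. The daily values were 0.11, −0.75 and −0.68 for Col4a1 and −0.17, −0.81 and −0.84 for Col4a2.

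These genes lie head to head on chromosome 8, and their promoter windows are shown because they overlap. In the RefSeq annotation the 2 gene starts are 21 bases apart, and each lies within the other gene, so that the genes overlap there. The windows have 78 bases in common (chr8:11312777-11312854), which hold 1 GC box.
Col4a1, chr8:11312777-11313076, minus strand: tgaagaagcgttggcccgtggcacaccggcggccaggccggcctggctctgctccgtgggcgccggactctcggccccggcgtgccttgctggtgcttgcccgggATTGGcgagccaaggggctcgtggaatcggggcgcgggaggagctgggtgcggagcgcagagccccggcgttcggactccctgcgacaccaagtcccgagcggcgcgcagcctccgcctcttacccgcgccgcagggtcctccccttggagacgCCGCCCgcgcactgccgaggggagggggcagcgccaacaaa
Col4a2, chr8:11312555-11312854, plus strand: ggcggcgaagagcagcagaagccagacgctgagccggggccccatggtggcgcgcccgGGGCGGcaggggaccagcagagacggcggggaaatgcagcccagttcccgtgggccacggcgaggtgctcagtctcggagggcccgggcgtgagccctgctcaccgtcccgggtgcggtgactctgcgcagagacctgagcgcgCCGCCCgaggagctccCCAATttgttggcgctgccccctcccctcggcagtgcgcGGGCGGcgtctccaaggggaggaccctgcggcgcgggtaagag
Each is written 5′ to 3′ along its own gene on build GRCm38.p6, with capitals as above. Both windows hold a CCAAT box in the 250 bases before the start, and 74.0% and 73.7% of their bases are G or C. The starts of Col4a6 and Col4a5 are 1343 bases apart and their windows do not overlap. Col4a3 and Col4a4, best known from the kidney glomerulus, had −0.33 ± 0.17 and −0.12 ± 0.16 at mean levels of 4.70 and 4.45.

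Col7a1, the chain of the fibrils that anchor epidermis to dermis, was the single member called lower. It had levels of 5.50, 5.66 and 5.77 in dense and 5.90, 6.21 and 6.39 in sparse cultures, without overlap between the densities. The 1.44-fold lower level in dense cultures (−0.52 ± 0.12, limma adjusted p = 0.0478) was just inside the threshold. It did not pass when each probe set was tested separately, with a variance trend, without the day as a factor or without any 1 of the 3 days, with values from −0.67 to −0.48.

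Short-chain collagens form hexagonal lattices, such as that under the corneal endothelium. Col8a1 was bright at both densities, with levels of 8.50, 8.20 and 8.05 in dense and 7.69, 8.21 and 8.06 in sparse cultures, and its difference of 0.26 ± 0.20 did not pass (limma adjusted p = 0.374). The dense value was above the sparse one on day 1 by 0.81, and on days 2 and 3 the arrays of the densities nearly coincided. Col8a2 had levels of 5.33, 6.01 and 6.73 in dense and 5.22, 5.48 and 5.52 in sparse cultures, and its difference of 0.62 ± 0.22 did not pass either (limma adjusted p = 0.113). Col10a1, the marker of hypertrophic cartilage, stayed between 3.70 and 4.21.

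The remaining classes showed no called member. The multiplexins Col18a1, whose end fragment is endostatin, and Col15a1 had −0.03 ± 0.13 and −0.25 ± 0.13. The transmembrane chains Col13a1, Col17a1 (a hemidesmosome component), Col23a1 and Col25a1 had −0.25 ± 0.12, −0.25 ± 0.13, −0.23 ± 0.13 and 0.02 ± 0.16. Levels of Col18a1, the brighter multiplexin, were 5.66, 5.57 and 5.76 in dense and 5.53, 5.82 and 5.75 in sparse cultures. Those of Col23a1, the brightest transmembrane chain, were 5.12, 5.61 and 5.45 in dense and 5.57, 5.77 and 5.53 in sparse cultures. For both genes the densities overlapped. Col28a1, a distant relative of type VI chains, had 3.87, 3.95 and 4.003 in dense and 4.08, 4.04 and 4.19 in sparse cultures and a difference of −0.16 ± 0.11. Its arrays did not overlap, but lay within 0.33 of each other.

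Counted without any test, 13 members had all 3 dense arrays above all 3 sparse arrays and 7 had them below, against 20.9% and 19% of all tested genes. The 13 were the 12 called higher and Col20a1. The 7 were Col4a2, Col6a6, Col9a2, Col15a1, Col10a1, Col7a1 and Col28a1. On single days, 9 members on day 1, 12 on day 2 and 10 on day 3 were at least 2-fold higher in dense cultures, where 3.29%, 5.89% and 6.4% of tested genes were. At least 2-fold lower were 0 members on each day, against 1.08%, 1.29% and 2.94% of tested genes.

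The course over the days was described by slopes per day from a limma fit of both densities. The SE and p-values of slopes rest on departures from straight lines over the 3 days at both densities. They do not measure the spread between replicate cultures. In dense cultures 1 of 41 members passed, Col8a2, which rose by 0.70 ± 0.09 per day (SE from all 6 arrays, limma adjusted p = 0.0130), where 1.71% of tested genes rose and 2.64% fell. Its dense level went from 5.33 to 6.01 and 6.73. This count depended on single arrays, in refits with 1 residual degree of freedom. Without the dense day 2 array 8 members rose, without the dense day 3 array 6, and without any 1 of the sparse arrays 0. Shares of all genes are not given for these refits, so the counts show only that the call was unsteady. In sparse cultures limma called 0 members (5 at an unadjusted p under 0.05, where 15.8% of all genes had one), against 0.0298% of genes rising and 0.0477% falling. Without any 1 of the dense arrays 5 members rose there, again with no share of all genes beside them. Col5a2, with the steepest sparse slope of 0.71 ± 0.11, had an adjusted p of 0.0884 there.

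The slopes of the densities differed for 0 members in limma's fit (8 at an unadjusted p under 0.05, where 16.2% of all genes had one), against 0.0776% of tested genes with a higher and 0.113% with a lower slope in dense. The smallest adjusted p was that of Col8a2, 0.110, with a slope difference of 0.55 ± 0.13. Without the dense day 1, day 2 or day 3 array, up to 4 members had a higher and up to 4 a lower slope in dense. For these refits the share of all genes is not given either. Col5a2 had −0.62 ± 0.16 (limma adjusted p = 0.126). Col9a3 and Col14a1, picked after their values were seen, rose on each step in dense and fell on each step in sparse cultures, with slope differences of 0.41 ± 0.13 and 0.45 ± 0.13 that did not pass (limma adjusted p = 0.177 and adjusted p = 0.157).

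**Figure D3:**
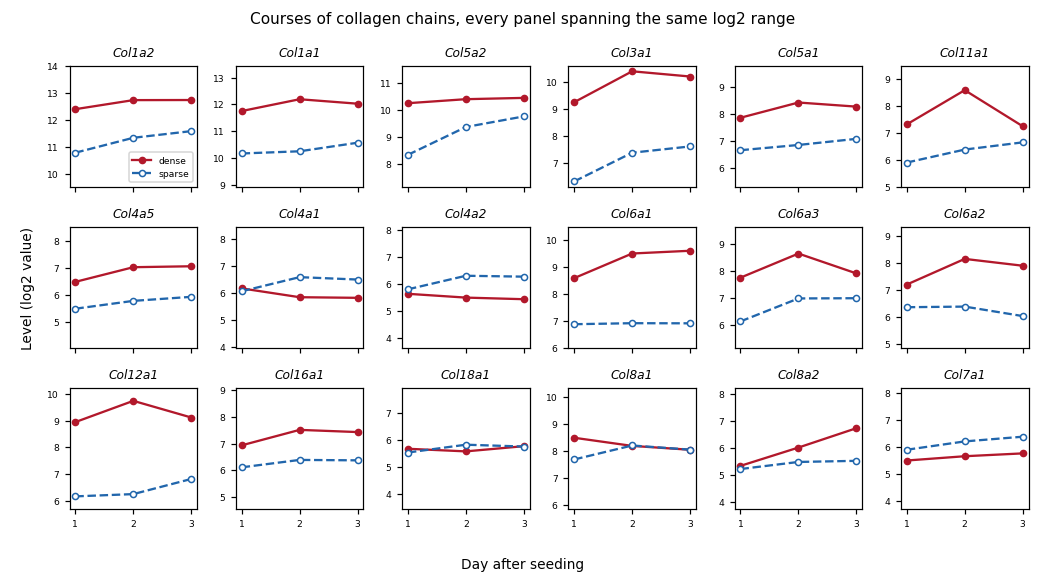
Log2 level (y axis) of 18 collagen chain genes on days 1 to 3 after seeding (x axis), with filled points for dense and open points for sparse cultures, 1 array each; all panels span the same log2 range. Dense Col11a1 and Col12a1 peak on day 2, sparse Col5a2 and Col3a1 climb from day 1, and dense Col8a2 rises through day 3.

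Day 2 was the highest dense array for 8 of the 12 members called higher, for 15 of all 41 members and for 24.99% of all tested genes. The 8 were Col1a1, Col3a1, Col5a1, Col11a1, Col6a3, Col6a2, Col12a1 and Col16a1. In sparse cultures 11 of the 12 had a day 3 level above that of day 1, the exception being Col6a2, as did 32 of all 41 members and 48.0% of all tested genes. Each of these counts compares single arrays and carries no test.

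The genes that modify, fold, export, trim, crosslink and bind collagen were measured from a list of 56, of which 49 were on the array and 47 were tested. In dense cultures 20 of the 47 rose and 0 fell (limma; 30 were higher and 5 lower at an unadjusted p under 0.05). Among all tested genes 8.26% rose and 2.9% fell. Without the day 1 arrays 13 rose and 1 fell, and without the day 2 arrays 0 rose and 0 fell. Their median difference was 0.61, beside −0.05 for all genes tested. Their highest dense array was that of day 2 for 29 of the 47, as it was for 24.99% of all tested genes.

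Of 11 genes of prolyl and lysyl hydroxylation, 9 were higher. P4ha2, a catalytic subunit of the prolyl hydroxylase that stabilises the helix, had levels of 8.88, 9.20 and 8.64 in dense and 6.93, 7.14 and 7.23 in sparse cultures. It was 3.49-fold higher (1.80 ± 0.16, limma adjusted p = 0.00763). P4ha1, the other main catalytic subunit, had levels of 10.59, 10.83 and 10.49 in dense and 8.83, 9.27 and 9.36 in sparse cultures, and a difference of 1.48 ± 0.16 (limma adjusted p = 0.0100). Both were higher in dense on each day. Leprel2, a prolyl 3-hydroxylase, followed with 1.27 ± 0.11 (limma adjusted p = 0.00763). The lysyl hydroxylases Plod1, Plod2 and Plod3 had 0.61, 1.25 and 0.66 and all passed.

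Folding and export had 3 of 12 higher. These were the isomerase Fkbp14 (1.21 ± 0.23, limma adjusted p = 0.0319), the transcription factor Creb3l1 (1.16 ± 0.18, limma adjusted p = 0.0229), which in mouse bone drives type I collagen, and the ion channel Tmem38b (0.78 ± 0.13, limma adjusted p = 0.0245). With the mean of its probe sets Tmem38b had 0.21 and did not pass (limma adjusted p = 0.435). The collagen chaperone Serpinh1, also known as HSP47, had 0.47 ± 0.17 and did not pass (limma adjusted p = 0.114). Its daily values went from 0.85 on day 1 to 0.13 on day 3. The single tested glycosyltransferase, Glt25d1, had −0.16 ± 0.12 without passing.

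Of 8 genes of propeptide removal 3 were higher. Adamts2, the protease that takes the amino-terminal propeptide off types I and III, was 3.30-fold higher (1.72 ± 0.19, limma adjusted p = 0.0114), with levels of 6.93, 7.71 and 7.06 in dense and 5.67, 5.52 and 5.34 in sparse cultures. Its relative Adamts3 had 0.98 ± 0.20 (limma adjusted p = 0.0365). Pcolce, which enhances removal of the carboxy-terminal propeptide, had 1.05 ± 0.13 (limma adjusted p = 0.0133). The gene of that protease itself, Bmp1, had 0.44 ± 0.15 and did not pass. Pcolce2, the relative of Pcolce, went the other way with −0.85 ± 0.30 and did not pass (limma adjusted p = 0.117). All its dense arrays lay below its sparse ones, and it fell in dense cultures by 0.68 ± 0.09 per day (limma adjusted p = 0.0138).

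Among 5 lysyl oxidases, which crosslink collagen, Loxl2 (1.78 ± 0.31, limma adjusted p = 0.0281) and Lox (1.18 ± 0.22, limma adjusted p = 0.0305) were higher, while Loxl1 (0.66 ± 0.19) did not pass. With the mean of its probe sets Loxl2 had 0.72 and passed. Of 7 tested collagen receptors 3 were higher. Itga11, the receptor subunit for fibrillar collagen, had 3.76 ± 0.31, Itga1, which also binds type IV collagen, had 2.32 ± 0.16, and Mrc2, which takes up collagen for breakdown, had 1.26 ± 0.12. Their limma adjusted p-values were 0.00719, 0.00662 and 0.00763. The sparse day 1 level of Itga1, 3.04, lay under the filter floor of 3.32, so that its size is uncertain. For the recycling of collagen peptides, Ctsk had 1.46 ± 0.40, Pepd −0.30 ± 0.17 and Prodh −0.29 ± 0.11. Of these 3, 0 passed in limma's density fit (2 at an unadjusted p under 0.05). In the slope fit Ctsk rose in dense cultures by 0.83 ± 0.13 per day (limma adjusted p = 0.0188), with daily differences of 0.37, 1.39 and 2.62. For this slope and that of Pcolce2 no refit with an array left out is given.

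**Figure D4:**
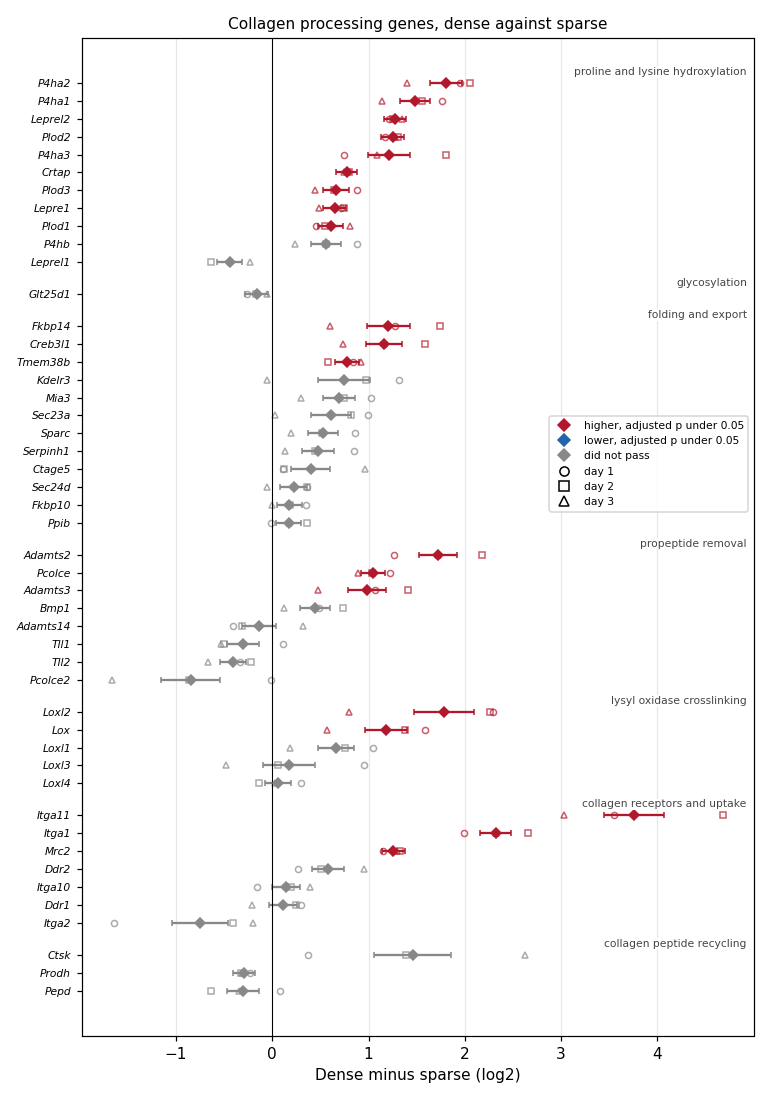
Dense minus sparse difference on the log2 scale (x axis) for the 47 tested collagen processing and binding genes (y axis, by role). Diamonds with bars are limma estimates ± SE over 3 arrays per density and open symbols the single days; 20 genes are called higher, 9 of them hydroxylation genes, and 0 are called lower.

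The labelled cell type was checked against its markers. Of 11 markers of mesenchymal stem cells, 1 had a mean under the median of all values (Eng), 6 were higher in dense cultures (Ly6a, Pdgfra, Pdgfrb, Thy1, Lepr and Cxcl12) and 1 was lower (Cd44). Their mean log2 level lay at 8.05 to 8.32 on the dense arrays, whereas the sparse ones had 7.27 to 7.39. Among all tested genes 8.26% were called higher and 2.9% lower, and without the day 2 arrays 0 genes were called. Osteoblast markers were higher in dense cultures for 2 of 6 tested genes, Alpl (2.89 ± 0.26) and Sp7 (1.67 ± 0.14). Bglap, Bglap2 and Dmp1 went the other way without passing, with −0.12 ± 0.12, −0.15 ± 0.12 and −0.18 ± 0.12. The mean over all 7 osteoblast markers, bright and dim together, was 4.67 to 5.40 on dense arrays, against 4.20 to 4.28 on sparse ones. Another osteoblast marker, Ibsp, did not pass the density test (1.32 ± 0.56) but rose in dense cultures by 1.51 ± 0.12 per day (limma adjusted p = 0.00895), a slope that differed from the sparse one by 1.57 ± 0.17 (limma adjusted p = 0.0427). Ibsp had levels of 3.25, 4.42 and 6.28 in dense and 3.32, 3.45 and 3.22 in sparse cultures. Its dense day 1 and sparse day 3 levels lay under the filter floor of 3.32, so that the size of these slopes is uncertain. The part of these markers in the collagen differences was not tested. Macrophage, endothelial, cartilage, fat, smooth muscle and epithelial lists had 0 called genes in limma's density fit (of 30 tested, 0 were higher and 6 lower at an unadjusted p under 0.05). In the slope fit 1 of them was called, the smooth muscle marker Cnn1, with a slope difference of −1.11 ± 0.14 per day (limma adjusted p = 0.0483). For the slopes of Ibsp and Cnn1 no refit with an array left out is given. The leukocyte marker Ptprc and the endothelial marker Cdh5 had mean sparse levels of 3.23 and 3.36 and were below the filter floor over the 6 arrays. Means under the median of all values were found for 7 of 9 measured macrophage and leukocyte markers and 8 of 9 endothelial ones. For fat, smooth muscle and epithelium these counts were 4 of 5, 2 of 6 and 4 of 5. The smooth muscle markers Acta2 and Cnn1 were bright, with means of 12.09 and 9.12, and the leukocyte markers Cd14 and Cd68 had 4.93 and 4.76.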

How the data were processed

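RNA of mesenchymal stem cells from mouse marrow, in 3 dense and 3 sparse cultures with 1 array per density and day, was measured on Affymetrix arrays with 35556 probe sets. The deposited log2 values had been made with RMA and Partek, per the submitters' processing notes; their versions, the build and the annotation stay unstated there. The p-values and signed fold changes of the authors' deposited table compare dense with sparse, per the file headers, and that table also gave the gene symbols. Its 6 columns of per-array values could not be matched to the labels and were not used.

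Symbols with several probe sets were represented by the one with the highest mean. Genes whose mean reached the 25th percentile (3.32) entered limma 3.58.1 (R 4.3.3; lmFit and eBayes, Benjamini-Hochberg adjustment over 16762 genes), with density and day as factors. That left 2 residual degrees of freedom. A second fit held density, day number and their product. The fits were tested on simulated data. Same-day arrays share a day by their labels, so the day was kept as a replicate block; the correlations of their deviations from the density means were 0.13, 0.08 and 0.07 on days 1, 2 and 3, and −0.15 to 0.11 between arrays of different days, so that days 2 and 3 did not exceed unpaired arrays. Precision is limited by having 6 arrays. The labels call the cultures independent samples, but each density and day has 1 array.

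The members, classes, partner and marker lists were chosen with earlier results of these data known. By rule, values in every array are given for members past a test and the brightest member of each class, and up to 3 partner genes per role with the largest difference are named. Serpinh1, Bmp1 and the Plod genes are named beside them for their known roles, and Pcolce2 as the relative of Pcolce. Alternatives were other choices of probe set, filter, normalization and variance prior, no day factor, and leaving out each array or day. Promoter sequences came from RefSeq windows on GRCm38.p6, of which 33 of the 41 members had one. Protein sequences were not analysed here, so the chain lengths and repeats planned in the design are not given.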

Additional observations from a re-analysis of the deposited data

How the results depend on the processing

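The 12 collagen chains called higher in dense cultures numbered 11 to 13 in all alternatives that kept the day 2 arrays; leaving out 1 array or 1 day gave 0 to 13. In the fit with the day as a replicate block, leaving out an array equals leaving out its day. Without the replicate block 13 chains were higher and 1 was lower (Col4a2 in place of Col7a1). The chains called lower numbered 1, 0 when each probe set was tested separately or a variance trend, 3 with quantile normalization applied again, and 0 to 2 without 1 array or day. That normalization put 78.6% of called chains on the higher side, against 92.3%, and called 1 partner gene lower. The calls of all genes moved as well, from 1384 higher and 486 lower to 1085 and 816. Without 1 array or day, partner genes called higher numbered 0 to 28 and lower 0 to 1; chains with a higher slope in dense 0 to 4, with a lower slope 0 to 4, rising in dense 0 to 8, falling in dense 0 to 2, rising in sparse 0 to 5, and falling in sparse 0 to 0. Without 1 array or day the difference of Col8a1 ran from −0.0097 (without day 1) to 0.40 and that of Col18a1 from −0.12 to 0.077 (without day 2), and neither was called. The cause of these changes was not tested, and shares of all genes are not given for the slope refits. Of 405 values of single genes under alternatives, counting each day left out once, 356 kept direction and side of the threshold, 43 lost the call, 4 gained one and 2 changed sign. Fits without a day keep 1 residual degree of freedom.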

Other observations

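Of the 41 collagen chain genes, 33 had RefSeq promoter windows of 300 bases on GRCm38.p6. GGGCGG on either strand was in the window of 20 of the 33 (60.6%), and in 35.7% of all 32851 windows. CCAAT was in 12 of the 33 (36.4%), against 37.4% of all windows, and TATAAA in 5 of the 33 (15.2%), against 13.6%. Among the 9 chains called higher that had a window, 6 held GGGCGG, 4 held CCAAT and 1, Col3a1, held TATAAA. Several members share a locus or an overlapping window, and these counts describe letters in the windows. The 3 members with 2 windows counted when either window held the motif, whereas the shares of all windows are per window. The median over all windows was 52.7% G or C, and the motif counts were not adjusted for it.

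In the authors' deposited table, 13 chains had p under 0.05 with a higher level in dense cultures and 4 with a lower one, beside 10.5% and 9.91% of all probe sets there. The 13 were the 12 called higher here and Col20a1, and the 4 were Col4a2, Col6a6, Col9a2 and Col7a1.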
